A study of Mus musculus with 6 samples.

Results

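Cytosolic ribosomal proteins are the protein parts of the ribosomes that translate messenger RNA in the cytoplasm. Their genes were taken as every gene named by a probe set with a single symbol that began with Rpl or Rps and a number, or that was Rplp0 to Rplp2 or Rpsa, leaving out pseudogenes, the Rps6k kinases and Rps19bp genes. This gave 48 genes out of the 12393 named by such probe sets, 26 of the large subunit and 22 of the small subunit. Each gene was represented by its probe set with the highest mean signal over the 6 arrays. The RNA came from metastases in the lungs of mice whose mammary tumours were driven by MMTV-Myc, a Myc transgene under a promoter active in mammary epithelium. All mice were of the FVB strain and all carried that transgene, and their age and sex are not given in the labels. By genotype, 3 metastases were E2F2 knockout (KO) and 3 were E2F3 heterozygous (Het). Metastases wild type for E2F2 and E2F3 were not analysed here, so the knockout of one E2F gene was set against the loss of 1 copy of another.

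A large and a small subunit join on a messenger RNA, and each holds ribosomal RNA and a fixed set of proteins. The genes of these proteins are classic targets of Myc, which raises ribosome production in growing cells. Their messenger RNAs carry a terminal oligopyrimidine (TOP) tract at the 5′ end, through which mTOR signalling controls their translation. Arrays measure RNA amounts and not translation.

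The titles of the Het arrays shared a number, whereas the KO arrays carried 3 different ones. The metastases of Het replicates 1, 2 and 3 were titled LM2, LM1 and LM3. Arrays with a shared number may hold metastases of a single mouse, so their mean was used as 1 Het sample against 3 KO samples. The labels do not name separate animals. Genotype and mouse of origin therefore cannot be told apart. With the Het arrays averaged, p-values rest on the spread among the KO samples, which may be in part technical, moderated over all probe sets. They do not measure the spread among the Het arrays. Every array had a trimmed mean signal of 499.95, with a highest signal between 22205 and 26149. Het replicate 1 stood apart in the 3′ to 5′ signal ratio of actin, at 2.38 against 1.48 to 1.73 on the other arrays. The tumour epithelial gene Krt8 was between 9660 and 12113 in the KO arrays and between 10637 and 11285 in the Het arrays, and the summed signal of all 9 such markers was 42094 to 50518 in KO and 41959 to 48557 in Het metastases. Host lung remained in the samples: the summed signal of 11 alveolar genes, of which 0 were at 0, was 13502 to 65091 in KO metastases, highest in replicate 1 and lowest in replicate 3, and 20715 to 32021 in Het metastases. In such bulk tissue, fewer cells of a type and less RNA per cell cannot be told apart.

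Ribosomal protein RNA was abundant and differed little between KO and Het metastases. The summed signal of the 48 genes was 568977, 600707 and 587685 in KO replicates 1 to 3, against 545629, 580848 and 575210 in Het replicates 1 to 3. KO replicate 1 lay below Het replicates 2 and 3, so the groups overlapped. Probe sets in the lowest 40% by mean signal were left out, and 45 of the 48 genes passed this filter. Over these 45, the median log2 difference of KO minus Het on log2(signal + 16) was 0.04, beside -0.04 over all 7971 genes kept, and 31 of the members were above 0 and 14 below, beside 43.7% of all genes above 0. The direction rests on how arrays are scaled: the member median was 0.01 with quantile normalization, with 24 genes above 0, and turned to -0.03 with each array centred on its median, with 12 above 0. Relative to the median of all genes the members stood at 0.08 as deposited and 0.06 after quantile normalization. Centring shifts every gene on an array alike, so it could not change this value.

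None of the 45 genes passed the test, and 0% of all genes did (limma, Benjamini-Hochberg adjusted p under 0.05; adjusted p = 0.9999 for every member). An unadjusted p under 0.05 was found for 1 of the 45 members, Rps27, and for 1.69% of all genes. A log2 difference over 0.5 in either direction was found for 2 members and for 10.6% of all genes. With each array as a sample, 0 members passed, and the lowest limma adjusted p of a member was 0.456. An unadjusted p under 0.05 was then found for 1 member, Rpl8 and no longer Rps27, against 9.61% of all genes. With that number from the titles fitted as a random block these were 0 members and 4.83% of all genes. The 95% intervals of the fit bound the size of the differences. For 35 of the 45 members the whole interval lay between -0.5 and 0.5, and the median half-width was 0.31. These intervals assume that the averaged Het sample varied like a KO sample.

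**Figure D1:**
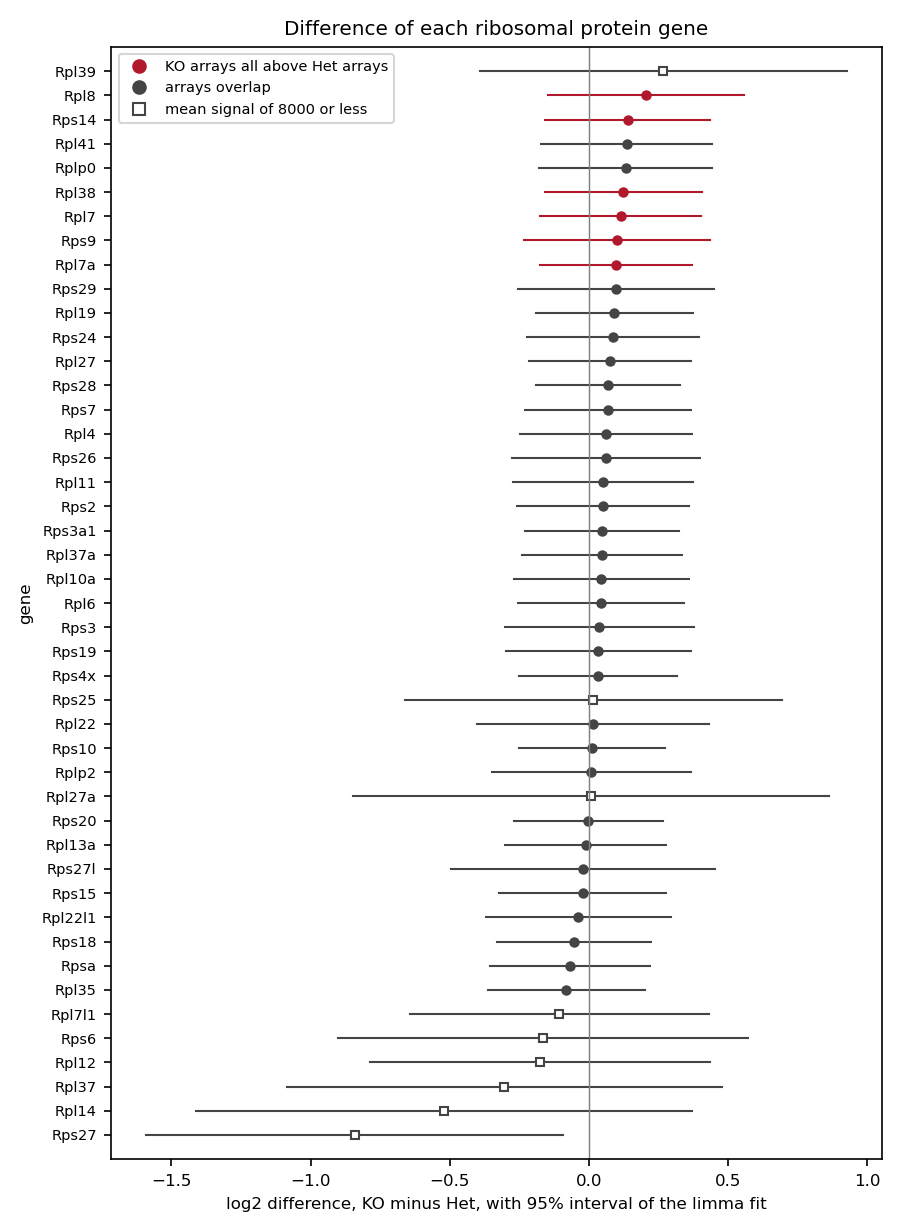
Log2 difference of KO minus Het (horizontal axis, log2(signal + 16)) for each of the 45 ribosomal protein genes that passed the filter (vertical axis), with the 95% interval of the limma fit as a line. Red marks the 6 genes whose KO arrays all lay above the Het arrays. Open squares mark the 9 genes with a mean signal of 8000 or less. The interval of Rps27 alone leaves out 0, and no interval counts the spread among the Het arrays.

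The 45 genes fell into 2 ranges of signal, which were divided at 8000 after the values were seen. Of the 45, 36 had mean signals from 9329 to 20649, and the other 9 from 161.2 to 3062. The log2 differences of the 36 bright genes ran from -0.08 to 0.21, with 28 above 0. Their spread was small as well: the SD of log2 values over the 6 arrays had a median of 0.08 and ran from 0.04 to 0.14. Over all 7971 genes the median SD was 0.24, and over the 97 other genes with a mean signal over 8000 it was 0.12. Whether any of these spots was saturated is not known here, and a saturated spot would show too small a difference.

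Stalk proteins come first among the members by role. Rplp0 encodes the base of the stalk that recruits elongation factors, and had signals of 16991, 19369 and 18438 in KO replicates 1 to 3, against 15390, 16768 and 17864 in Het replicates 1 to 3. Its log2 difference was 0.13 (SE 0.12), and Het replicate 3 lay above KO replicate 1, so the groups overlapped. Rplp2 encodes an acidic protein bound to that base, and had 16550, 17746 and 20019 in KO and 18621, 17912 and 17308 in Het metastases. The difference of Rplp2 was 0.01 (SE 0.14), with the Het arrays inside the KO range.

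Within the large subunit, Rpl8 differed most among the bright genes. Rpl8 encodes a protein near the site where peptide bonds form, and its signals were 14894, 16907.5 and 14385 in KO, against 12873, 13423 and 13666 in Het metastases. All KO arrays lay above all Het arrays, a log2 difference of 0.21 (SE 0.14, 95% interval -0.15 to 0.56; limma adjusted p = 0.9999), which is 1.15-fold. Rpl38, whose loss in mice impairs the translation of certain Hox messenger RNAs, had 20389, 20017 and 18619 in KO and 17246, 18548 and 18366 in Het metastases. Here too the groups did not overlap, but KO replicate 3 and Het replicate 2 were nearly equal, and the difference was 0.12 (SE 0.11).

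Rpl7 and Rpl7a are different large subunit proteins despite their similar names. Rpl7 had 15676, 16983 and 16413 in KO and 14194, 15622 and 15541 in Het metastases, a difference of 0.11 (SE 0.11). Rpl7a had 18157, 19490 and 18720 in KO and 16988, 17823 and 17838 in Het metastases, a difference of 0.10 (SE 0.11). In both genes the lowest KO array was only just above the highest Het array. Rpl11, which with Rpl5 and the 5S ribosomal RNA can bind the p53 inhibitor Mdm2, had 13324, 12607 and 14164 in KO and 12967, 13018 and 12675 in Het metastases. The difference of Rpl11 was 0.05 (SE 0.13), and the Het arrays fell inside the KO range.

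In the small subunit, Rps14 and Rps9 had KO arrays above all Het arrays. Rps14, the gene whose loss is linked to the anaemia of the human 5q- syndrome, had 17112, 18698 and 17040 in KO and 15686, 16121 and 16148 in Het metastases, a difference of 0.14 (SE 0.12). Rps9 had 11914, 12371 and 13475 in KO and 11841, 11705 and 11629 in Het metastases, a difference of 0.10 (SE 0.13), with KO replicate 1 close to the Het arrays. Neither passed the test (limma adjusted p = 0.9999).

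Other small subunit genes with roles beyond the ribosome overlapped between the groups. Rpsa, also known as the laminin receptor, had 17586, 18130 and 19421 in KO and 18008, 20546 and 19289 in Het metastases, a difference of -0.07 (SE 0.11). Rps3, which lies at the entry of the messenger RNA channel, differed by 0.04 (SE 0.13). Rps19, mutated in human Diamond-Blackfan anaemia, differed by 0.03 (SE 0.13). Rpl13a of the large subunit, which has a part in translational silencing after interferon in human cells, was at -0.01 (SE 0.11). The steadiest members over the 6 arrays were Rps15, between 12030 and 12603 in the KO arrays and between 12101 and 12818 in the Het arrays, and Rps20, between 16676 and 17067 in the KO arrays and between 16278 and 17753 in the Het arrays.

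Genes without overlap were thus 6 higher in KO (Rpl8, Rps14, Rpl38, Rpl7, Rpl7a and Rps9) and 0 lower. Among all genes, the arrays did not overlap with KO higher for 5.93% and with KO lower for 10.5%. All 6 were among the 36 members with a mean signal over 8000. Of the 97 other genes with a mean signal over 8000, 10 were higher in KO without overlap and 3 lower. In place of the 6 higher members there were 4 with quantile normalization, beside 5.73% of all genes, and 0 with median centring, beside 3.73%. With fewer arrays a lack of overlap is easier for every gene. Leaving out KO replicates 1, 2 and 3 in turn gave 12, 8 and 9 higher members, beside 9.69%, 8.59% and 16.4% of all genes. Leaving out Het replicates 1, 2 and 3 in turn gave 6, 8 and 10, beside 11.4%, 8.74% and 8.03%. Lower members numbered 4 without KO replicate 3 and 3 without Het replicate 1, beside 21.4% and 15.4% of all genes.

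Sequences around the start sites are shown for the 3 of these 6 genes that matched a promoter record, because ribosomal protein RNAs are known for the TOP tract, with Rps15 as a steady member for comparison. Capitals mark a run of at least 6 C or T, counted from a C within 10 bases of the annotated start. They also mark the letters CCGGAAG, the core recognised by ETS factors such as GABP. A run counted in this way can be the later part of a longer stretch of C and T, as in Rpl38, Rpl7a and Rps9. Each window holds 50 bases before the start and 20 from it, read 5′ to 3′ on the plus strand of GRCm38.p6 from RefSeq records, at chr11:114668530-114668599 for Rpl38, chr2:26910757-26910826 for Rpl7a, chr7:3703991-3704060 for Rps9 and chr10:80292381-80292450 for Rps15.
Rpl38: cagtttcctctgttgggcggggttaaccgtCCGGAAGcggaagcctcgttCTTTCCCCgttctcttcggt
Rpl7a: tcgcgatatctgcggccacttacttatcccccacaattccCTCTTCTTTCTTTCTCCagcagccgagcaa
Rps9: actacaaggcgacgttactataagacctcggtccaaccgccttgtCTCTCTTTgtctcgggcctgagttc
Rps15: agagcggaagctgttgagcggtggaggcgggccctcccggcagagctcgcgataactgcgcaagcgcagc
Rpl38 held both features, Rpl7a and Rps9 held the pyrimidine run in this window, and Rps15 held neither. RefSeq promoter records of 300 bases, 250 before the start and 50 from it, matched 42 of the 48 genes, with 50 records. A pyrimidine run by the same rule was found in 48% of these records, beside 19.2% of all 32851 records. CCGGAAG, on either strand, was found in 42% beside 8.86%. AAGATGG, the core recognised by YY1, was found in 14% beside 6.34%, and CACGTG, the E-box bound by Myc with Max, in 10% beside 7.15%. The last 3 letters of CCGGAAG can also be the first 3 of AAGATGG, and a pyrimidine run can hold part of CCGGAAG read on the other strand, so a stretch can count for more than 1 motif. These are matches of letters, and the window follows the annotated start, which may lie some bases from the start used in these tumours.

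Bright and dim members had different orders of the arrays. Over the 36 bright genes, Het replicate 1 was the lowest array for 23 and the highest for 0, and it lay below every KO array for 25. KO replicate 2 was the highest array for 17 of the 36. Their mean log2 value relative to the mean of the 6 arrays was -0.02, 0.06 and 0.03 in KO replicates 1 to 3 and -0.08, 0.01 and -0.004 in Het replicates 1 to 3. Over all 45 members KO replicate 1 was lowest, at -0.05, with Het replicate 1 at -0.04. Among the bright genes Het replicate 1 was lowest, and it was also the array with the raised 3′ to 5′ ratio of actin, whose part in the result was not tested. Without it, the median difference of the 45 members was 0.02. Leaving out KO replicate 1 or Het replicate 2 gave a median of 0.07 in both cases, and leaving out KO replicate 2 or KO replicate 3 gave 0.02. The alveolar genes had another order: the mean log2 value of the 10 that passed the filter, relative to the 6 arrays, was 1.43, 0.37 and -1.05 in KO replicates 1 to 3 and 0.26, -0.58 and -0.43 in Het replicates 1 to 3.

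**Figure D2:**
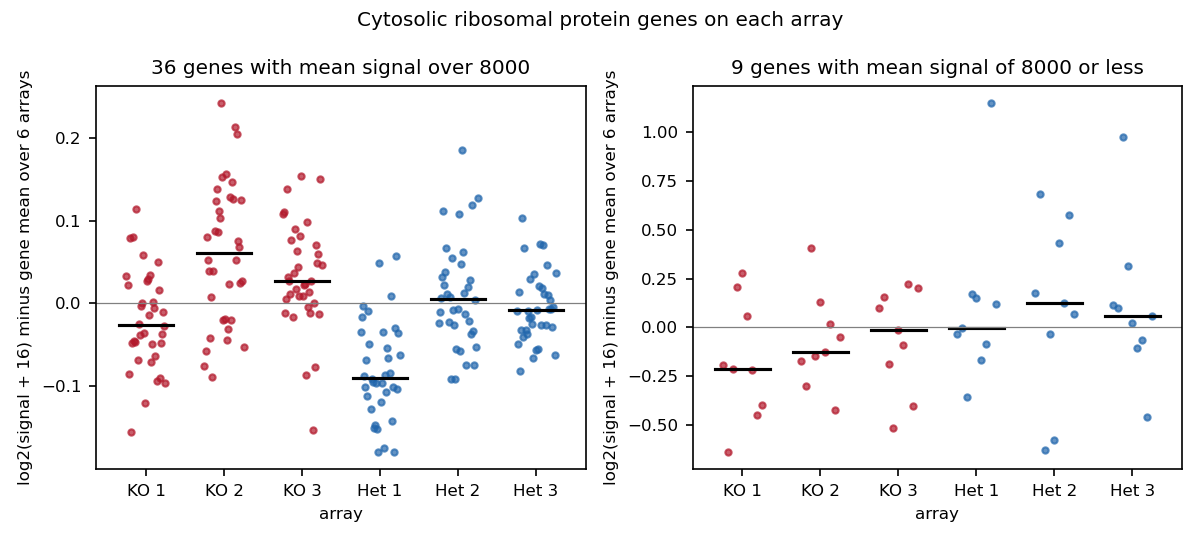
Each point is a ribosomal protein gene on an array (horizontal axis), as log2(signal + 16) minus the gene's mean over the 6 arrays (vertical axis), KO in red and Het in blue, with black bars at the medians. The left panel holds the 36 bright genes and the right panel the other 9, on a wider axis; Het replicate 1 sits lowest in the left panel.

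Large and small subunit genes were close to each other. The median difference was 0.05 over 24 large subunit genes, with 17 above 0, and 0.03 over 21 small subunit genes, with 14 above 0, and with median centring these turned to -0.03 and -0.05. By array, the large subunit mean was -0.03, 0.03 and 0.02 in KO and -0.07, 0.003 and 0.05 in Het replicates 1 to 3. For the small subunit it was -0.07, 0.04 and 0.01 in KO and -0.01, 0.05 and -0.02 in Het replicates 1 to 3. Both subunits overlapped between the groups.

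Paralogues are second copies of a ribosomal protein gene that can take the place of the usual one. Rpl22, a large subunit protein lost in some human T cell leukaemias, had 8394, 9610 and 10286 in KO and 8716, 10102 and 9142 in Het metastases. Its paralogue Rpl22l1, which rises when Rpl22 is lost in mice, had 9014, 9052 and 9533 in KO and 8890, 9470 and 10016 in Het metastases. The differences of 0.01 (SE 0.17) for Rpl22 and -0.04 (SE 0.13) for Rpl22l1 lay within the spread of the arrays. Rps27l, a paralogue induced by p53, was at 8906, 11024 and 8550 in KO and 9565, 9366 and 9816 in Het metastases, a difference of -0.02 (SE 0.19). Rpl7l1, a relative of Rpl7 that acts in ribosome assembly, was at -0.11 (SE 0.21), with Het replicate 2 highest at 2116 and the other arrays between 1395 and 1631. Its second probe set was at 0.10.

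The remaining 3 of the 48 genes, all paralogues, did not pass the filter. Rpl3l, a striated muscle paralogue, had signals of 3.75 to 4.33 in KO and 3.03 to 8.18 in Het metastases. Rpl39l, a male germ cell paralogue, ranged over 0.61 to 28.2 in the KO arrays and 0.64 to 6.57 in the Het arrays. Rps4l ranged over 4.39 to 48.1 in the KO arrays and 3.32 to 7.69 in the Het arrays. For Rpl39l and Rps4l the highest value was that of KO replicate 1, the array with the most alveolar signal. Both values were under the lowest mean signal kept, 82.6, and the part of host lung in them was not tested.

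Lower signals came with wider spread among the 9 members at or under 8000, of which 8 were represented by a probe set whose ID ends in _at alone. Their direction was opposite to that of the bright genes: 6 of the 9 were below 0, with a median of -0.16. Their mean log2 value relative to the 6 arrays was -0.17, -0.07 and -0.06 in KO replicates 1 to 3 and 0.10, 0.09 and 0.11 in Het replicates 1 to 3, so every KO array was below every Het array. This division at 8000 followed the values, and no test was made on it. Whether the direction belongs to these genes or to the probe sets that represent them was not tested. Dim probe sets of members that also had bright ones went both ways, at -0.46 for Rps10 and -0.29 for Rps9 but 0.33 for Rpl37a and 0.27 for Rpl41. Rps27, a small subunit protein, was at 101.1, 103.2 and 104.9 in KO, against 336.7, 221.3 and 100.2 in Het metastases. The KO arrays were nearly equal and Het replicate 3 matched them, so only Het replicates 1 and 2 were higher. The log2 difference was -0.84 (SE 0.30, 95% interval -1.59 to -0.09, limma adjusted p = 0.9999). That interval does not count the spread among the Het arrays, whose log2 SD was 0.81, against 0.02 among the KO arrays. With each array as a sample the unadjusted limma p was 0.056. Leaving out Het replicate 1 gave -0.48, and leaving out Het replicate 3 gave -1.28.

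Rpl14 of the large subunit was at 515.6, 654.5 and 903.5 in KO and 807.1, 1310 and 868.4 in Het metastases, a difference of -0.52 (SE 0.35). KO replicate 3 reached the Het level, and the difference became -0.33 when KO replicate 1 was left out and -0.31 when Het replicate 2 was. Rpl37 was at 3470, 2721 and 2098 in KO and 3394, 2939 and 3747 in Het metastases (-0.30, SE 0.31), with KO replicate 1 among the Het values. Rps6, the target of the S6 kinases downstream of mTOR, was at 1176, 1504 and 1787 in KO and 1688, 1632 and 1619 in Het metastases (-0.16, SE 0.29). Rpl39 was at 264.9, 237.0 and 213.6 in KO and 240.5, 139.3 and 219.3 in Het metastases (0.27, SE 0.26). For Rpl27a, Het replicate 3 was far above the rest at 523.6, with Het replicates 1 and 2 at 198.9 and 161.9 and the KO arrays at 221.4, 348.4 and 225.8. None of these passed the test.

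Several probe sets report on 19 of the members that passed, and their differences had a single sign for 7 of these. The gap between probe sets of a gene reached 0.55. Among the 16 members with several probe sets over 8000, those bright probe sets had a single sign for 10, and the widest gap was 0.35. Rps10 had 6 probe sets kept, at 0.01, 0.01, -0.10, 0.09, -0.26 and -0.46 from the brightest to the dimmest. Het replicate 2 was the highest array in 5 of those 6, and the dimmest was at 226.0, 193.5 and 201.5 in KO against 237.5, 425.4 and 241.2 in Het metastases. Het replicate 2 was also highest in 4 of 4 probe sets of Rps18, the brightest of which was at 19494, 18644 and 17933 in KO and 16873, 21648 and 20012 in Het metastases.

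Rps9 gave opposite signs. Its brightest probe set was higher in KO on all arrays, whereas another was lower, at 441.6, 552.9 and 462.5 in KO and 617.6, 588.3 and 578.5 in Het metastases, a difference of -0.29. The third was at -0.10 and overlapped. Rpl7 gave the same sign in 3 of 3 probe sets, at 0.11, 0.12 and 0.21, and Rps14 in both, at 0.14 and 0.13, though its second probe set overlapped between the groups. Rpl8, Rpl38 and Rpl7a each had a single probe set. Ribosomal protein genes have many processed pseudogenes, which makes such signals uncertain: 40 of the 100 member probe sets end in _x_at, a name that marks probes shared with other sequences. The brightest probe sets of Rps14, Rpl38 and Rpl7 are among these, and that of Rps9 ends in _s_at. With the 20 genes that have a probe set ending in _at alone, the median difference was -0.04, 9 were above 0, 0 were higher without overlap and 2 were lower. The 2 lower were Rps9 and Rps10, by probe sets with mean signals of 540.2 and 254.2. Of the genes named above as higher in KO without overlap, only Rps9 has such a probe set, so the others could not appear in this setting. Over all genes in that setting the median was -0.04 too, with 6.1% higher and 9.89% lower without overlap. Ending and brightness went together: kept member probe sets ending in _at alone had a median signal of 843.2, against 15778 for those ending in _x_at.

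**Figure D3:**
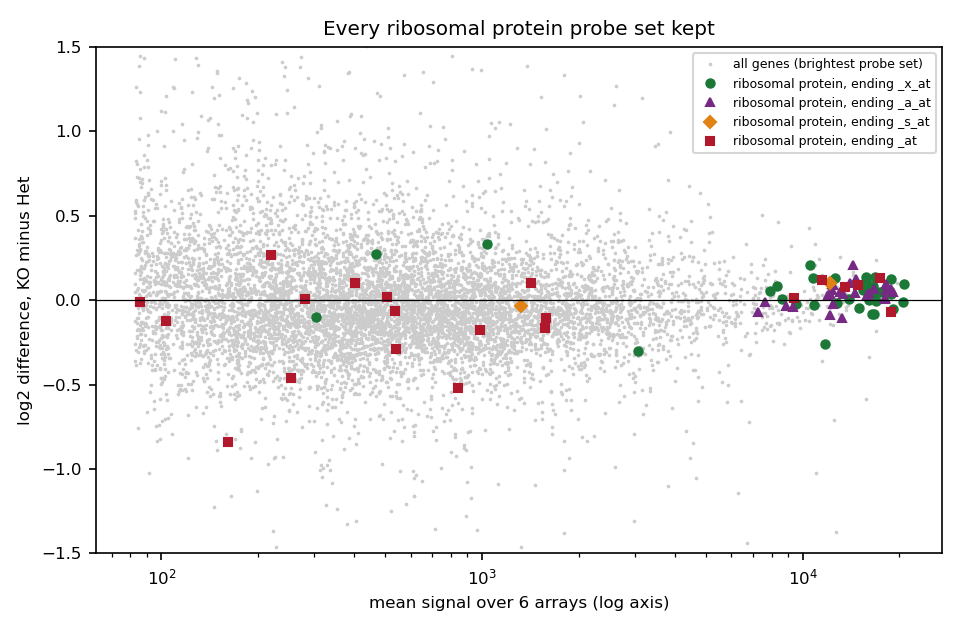
Log2 difference of KO minus Het (vertical axis) against the mean signal over the 6 arrays (horizontal log axis) for the 88 ribosomal protein probe sets kept, by the ending of their ID, over all genes in grey. Probe sets above 8000 lie close to 0, those below scatter more, and 46 genes beyond 1.5 in either direction are outside the plot.

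Another 91 probe sets named 1 ribosomal protein gene together with pseudogenes or unnamed gene models, and were left out by the rule. With them added, 70 genes could be represented, with a median difference of 0.05 and 51 above 0. Of these, 7 were higher in KO without overlap and 0 lower, beside 5.93% and 10.5% of all genes in that setting. Single genes of this wider set are not named, because their probe sets carry several symbols.

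Other genes of translation were described from lists. Of 20 translation factors and other TOP RNAs, 19 passed the filter, 14 were above 0, and the median was 0.12 as deposited, 0.06 with quantile normalization and 0.04 with median centring. Without overlap, 3 were higher and 0 lower, beside 5.93% and 10.5% of all genes, and 0 passed the test. Eif3l, a subunit of the initiation factor eIF3, was at 5454, 5148 and 4443 in KO and 3904, 4024 and 3869 in Het metastases (0.34, SE 0.19). Gas5, a TOP RNA that hosts small nucleolar RNAs, was at 6441, 6579 and 6798 in KO and 5656, 5703 and 5247 in Het metastases (0.26, SE 0.15), but this probe set ends in _x_at, and the direction turned to -0.15 with probe sets ending in _at alone. Among the arrays, this list lay at 0.07, 0.09 and 0.02 in KO and -0.10, 0.01 and -0.09 in Het replicates 1 to 3, so KO replicate 3 and Het replicate 2 nearly met. Fau, whose product is cut to release the small subunit protein eS30, differed by 0.02 (SE 0.14).

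Mitochondrial ribosomal proteins, which serve the separate ribosome of the mitochondrion, were more often below 0 than above it, as all genes were. Of 74 genes, 21 were above 0 and 53 below, with a median of -0.07 as deposited, beside -0.04 over all genes, and -0.15 with median centring, beside -0.12. Without overlap, 1 was higher and 7 were lower, beside 5.93% and 10.5% of all genes, and 0 passed the test. Mrps23 was at 883.8, 865.9 and 965.7 in KO and 658.5, 640.1 and 713.6 in Het metastases (0.42, SE 0.22), and the mean over its probe sets gave 0.24. Mrpl44 was at 1028, 968.1 and 1066 in KO and 1114, 1347 and 1343 in Het metastases (-0.30, SE 0.22), but the mean over its probe sets gave -0.18 and those ending in _at alone 0.01. The list lay at -0.14, -0.04 and 0.10 in KO and 0.06, 0.02 and 0.001 in Het replicates 1 to 3. It was thus lowest in the array with the most alveolar signal and highest in the array with the least. Among the Het arrays, however, it was highest in replicate 1, which had the most alveolar signal of that group. The part of host lung in these values was not tested.

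Assembly and transport factors of the subunits went both ways, with 9 of 16 above 0 and a median of 0.05 that turned to -0.03 with median centring. None passed the test. The kinases of small subunit maturation Riok1 and Riok2 were at -0.40 (SE 0.25) and -0.42 (SE 0.27), Riok1 with all KO arrays (277.1, 274.4 and 335.2) below the Het arrays (400.1, 383.8 and 396.9). Over all probe sets of Riok1 the mean was -0.21, and with those ending in _at alone the direction turned to 0.05, while Riok2 was then at -0.16. Among the KO arrays this list lay at -0.17, -0.06 and 0.20 in replicates 1 to 3.

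**Figure D4:**
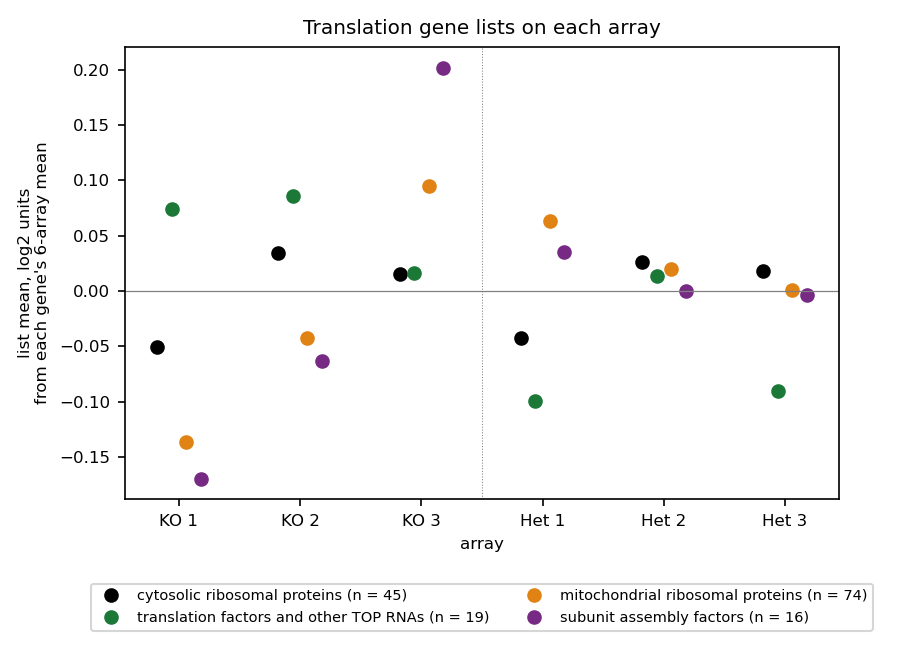
Mean of 4 translation gene lists on each array (horizontal axis), in log2 units from each gene's mean over the 6 arrays (vertical axis). The 45 cytosolic ribosomal protein genes stay between -0.05 and 0.03, whereas the assembly factors run from -0.17 to 0.20.

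The genes that link Myc, ribosomal proteins and p53 were read beside these results. The level of Myc itself was 10662, 10870 and 13138 in KO and 11302, 13277 and 13558 in Het metastases, a difference of -0.14 (SE 0.17). Mdm2, the p53 inhibitor bound by Rpl11, was at 452.6, 451.2 and 495.6 in KO and 547.8, 379.9 and 431.4 in Het metastases (0.06, SE 0.23), and the mean over its probe sets gave 0.32, while median centring turned it to -0.02. Cdkn1a, a p53 target, was at 603.2, 1095 and 583.3 in KO and 752.1, 409.9 and 507.9 in Het metastases (0.42, SE 0.41). Leaving out KO replicate 2 gave 0.13 for Cdkn1a, and the mean over its probe sets gave 0.83. All 3 genes overlapped between the groups. Lymphocyte markers were near the bottom of the range: 0 of 11 marker genes passed the filter, 0 were at 0, and the summed signal was 196.6 to 619.5 in KO and 227.6 to 312.4 in Het metastases.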

How the data were processed

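RNA from 6 lung metastases was measured on Affymetrix mouse arrays. The deposited values were intensities on a linear scale; MAS5 and Affymetrix Expression Console are named in the submitters' processing notes, with versions not given in the sources used here. As deposited, all arrays had nearly the same trimmed mean (2% cut from each end). Detection calls were not used, and the number of arrays limits the precision. Of 22690 probe sets, 64 were controls, and 20380 had a single symbol in the platform annotation, with 0 needing an update through the Entrez ID. After removal of controls and of the dimmest 40%, 13576 probe sets were kept.

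Log2(signal + 16) was fitted with limma 3.58.1 in R 4.3.3 (eBayes with trend), 3 KO samples against the averaged Het arrays, over all probe sets, with p-values adjusted by Benjamini and Hochberg and called under 0.05. Fold changes on this scale understate those of dim genes. The members, lists and tests were chosen with earlier results of these data known. Named members were those without overlap, the 4 with the largest and 2 with the smallest SD, paralogue pairs, members with other known roles, and 2 genes of each other list with the largest moderated t. The fit was tested on simulated data: its estimates were close to the changes put in, but few probe sets were called unless the change was large, so a lack of calls does not show equal levels. Alternatives covered the unit of replication, pseudocount, filter, scaling, probe set choice and leaving out each array. Promoters came from RefSeq (GRCm38.p6). Other lists held tumour epithelium, lung alveolus, endothelium, lymphocytes, macrophages, and red cells and platelets.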

Additional observations from a re-analysis of the deposited data

How the results depend on the processing

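No alternative put any probe set or ribosomal protein gene past the threshold (limma). The number of ribosomal protein genes lower in KO without overlap was 1 with quantile normalization, beside 11.2% of all genes. With median centring the member median was -0.035 and 0 were higher without overlap, and with probe sets ending in _at alone these were -0.039 and 0, with 2 lower. Of the genes higher in KO without overlap as reported, only Rps9 has a probe set ending in _at alone. Leaving out each array in turn gave 6 to 12 higher and 0 to 4 lower without overlap, against 6 and 0 with all arrays, and member medians of 0.016 to 0.075; over all genes 8.03% to 16.4% were then higher and 14.1% to 21.4% lower. Some differences changed sign, among them those of Riok1, Mrpl44 and Gas5, which were -0.40, -0.30 and 0.26 as reported. With median centring they were -0.054 for Fau, -0.024 for Mdm2, -0.028 for Rpl11, -0.064 for Rpl22, -0.072 for Rpl27a, -0.070 for Rplp2, -0.045 for Rps19 and -0.041 for Rps3. With quantile normalization they were -0.0022 for Fau, -0.039 for Rpl27a and -0.048 for Rplp2, and with a pseudocount of 64 the value was -0.011 for Rpl27a. With the mean over a gene's probe sets they were -0.0084 for Rpl22, 0.047 for Rps15, 0.0067 for Rps20 and -0.096 for Rps9. With probe sets ending in _at alone they were -0.15 for Gas5, 0.012 for Mrpl44, 0.055 for Riok1, 0.12 for Rps15 and -0.29 for Rps9. Without single arrays the differences ran from -0.033 to 0.059 for Fau, -0.059 to 0.20 for Mdm2, -0.055 to 0.028 for Rpl13a, -0.051 to 0.096 for Rpl22, -0.082 to 0.0034 for Rpl22l1, -0.31 to 0.49 for Rpl27a, -0.22 to 0.083 for Rpl7l1, -0.066 to 0.071 for Rplp2, -0.0069 to 0.077 for Rps19, -0.030 to 0.033 for Rps20, -0.13 to 0.048 for Rps27l and -0.042 to 0.11 for Rps3. The cause was not tested. No paired analysis was possible because the KO titles carry no replicate numbers shared with the Het titles.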

Other observations

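Markers of other cells in these metastases were read beside the ribosomal protein genes. Of 10 endothelial genes, 9 were above 0 with a median log2 difference of 0.33. Without overlap, 0 were higher, beside 5.93% of all genes. Their summed signal was 1931 to 4614 in KO and 2152 to 3556 in Het metastases. Pecam1 and Emcn, both vessel markers, differed by 0.61 (SE 0.48) and 0.45 (SE 0.38). Of 8 macrophage genes, 2 were above 0, with a median of -0.22; Cd68 was at -0.56 (SE 0.38) and Adgre1 at 0.26 (SE 0.27). Of 4 red cell and platelet genes, 3 were higher in KO without overlap, again beside 5.93% of all genes. The platelet genes Ppbp and Pf4 differed by 1.43 (SE 0.29) and 0.91 (SE 0.46). In tumour epithelium, 6 of 9 genes were above 0 with a median of 0.03 that turned to -0.04 with median centring, Krt7 being at 0.53 (SE 0.39) and Cldn4 at -0.49 (SE 0.31). In the alveolus, Aqp5 was at 1.20 (SE 0.89) and Cav1 at 0.39 (SE 0.32). Without KO replicate 1, Aqp5 was at 0.78, Cav1 at 0.19, Krt7 at 0.29, Emcn at 0.29 and Pf4 at 0.58. Without Het replicate 1, Adgre1 was at 0.01 and Emcn at 0.20. Without Het replicate 2 Cav1 was at 0.24, and without Het replicate 3 Krt7 was at 0.32. None of these genes passed the test (limma adjusted p = 0.9999 for each).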
